A study of Danio rerio with 12 samples.

Results

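In zebrafish (Danio rerio) melanomas, 10 genes switched on by the growth factor, Ras and ERK pathway were described: the phosphatase genes dusp6, dusp4 and dusp5, the Sprouty genes spry1, spry2 and spry4, the receptor-like inhibitor gene il17rd, and the transcription factor genes etv4, etv5a and etv5b. They were chosen by name as known outputs and feedback inhibitors of the pathway, and no threshold on a measured value entered the choice. Earlier results of these data were known when the choice was made. All 10 were found among the 27827 genes of the deposited table, 9 by their symbol in it and etv4 under its older symbol pea3, and all 10 passed the filter on low counts, which left 26866 genes. The RNA-seq libraries, made from polyA RNA, came from 12 melanomas, 6 labelled MiniCoopR-GFP (GFP) and 6 labelled MiniCoopR-MyrRSK (MyrRSK). MiniCoopR is a vector that returns mitfa, the master regulator of the melanocyte lineage, to fish that lack it and carries a second gene for expression in the same lineage, so that rescued pigment cells and the tumours they form carry the added gene. GFP is the fluorescent control protein, and MyrRSK is a form of ribosomal S6 kinase (RSK); the Myr prefix is not spelled out in the labels and is commonly used for a myristoylation signal, which anchors proteins to membranes. The labels state no treatment and give neither the strain, other alleles and age of the fish nor the species or paralog of the RSK transgene. They do not say outright that every tumour came from its own fish, so a p-value here reflects variation among the 12 samples, which may in part be technical.

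ERK is the last kinase of a cascade that runs from receptor tyrosine kinases through Ras, Raf and MEK. Active ERK phosphorylates RSK and, through transcription factors, switches on genes such as the 10 described here. Several of their products feed back on the cascade: Dusp6 and Dusp5 remove the activating phosphates from ERK, Dusp4 acts on ERK and related kinases, Sprouty proteins and Il17rd (also called Sef) restrain signalling nearer the receptor, and Etv4 and Etv5 are ETS-family transcription factors of the PEA3 group. RSK acts downstream of ERK, and in human melanoma, where the cascade is often active through mutated BRAF or NRAS, transcripts of DUSP6, SPRY2, SPRY4, ETV4 and ETV5 are commonly read as a measure of its output. The comparison of MyrRSK with GFP melanomas therefore asks how these outputs stand when MyrRSK is present.

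The libraries held 61750434 to 72257237 gene counts. Levels are given in CPM (each count divided by the TMM-scaled size of its library and put on a per-million basis), and they are compared between libraries but not between genes, since no transcript lengths were used. A principal component analysis of log2 CPM placed GFP 1 and GFP 2 far from the remaining 10 libraries along its first axis, which held 18.2% of the variance. The second axis held 16.4% and separated the groups, with GFP libraries from -11.4 to 114.8 and MyrRSK libraries from -73.2 to -33.7. Melanocyte markers were detected in all 12 libraries, with 10 of the 12 listed genes matched and none at 0 in any. Their summed level ran from 1302 CPM (GFP 6) to 34968 CPM (GFP 5) in GFP and from 3961 CPM (MyrRSK 3) to 16785 CPM (MyrRSK 4) in MyrRSK melanomas. Of the marker lists of other cell types, skeletal muscle moved most: at an unadjusted p under 0.05, 20 of 25 tested genes were higher and 0 lower in MyrRSK, with 2 past the adjusted threshold. The corresponding counts of higher and lower genes were 0 and 3 of 10 for melanocytes, 0 and 5 of 15 for keratinocytes, 3 and 0 of 13 for fibroblasts, 0 and 1 of 11 for endothelium, 3 and 1 of 15 for leukocytes, 1 and 1 of 13 for neurons and glia, and 0 and 0 of 5 for red cells, where 7.18% of all genes tested were higher and 8.33% lower by the same rule.

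The 10 genes did not move as a block between the groups. With edgeR's quasi-likelihood test, 0 of 10 passed a Benjamini-Hochberg adjusted p of 0.05 over all genes, against 0.406% of all genes tested (0.29% higher and 0.115% lower), and 1 gene, dusp6, was higher at an unadjusted p under 0.05, against 7.18% of all genes. DESeq2 called 1 of the 10, dusp6 again, against 3.05% of all genes called higher by that tool, and limma-voom called 0 against 0.395% of genes in either direction. Of the 10 log2 fold changes 5 were positive and 5 negative, with a median of 0.07, beside a median of -0.07 and 44.9% positive over all genes tested. For none of the 10 did the groups separate fully, against 1.01% of all genes with every MyrRSK library above every GFP library and 0.722% with every one below.

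**Figure D1:**
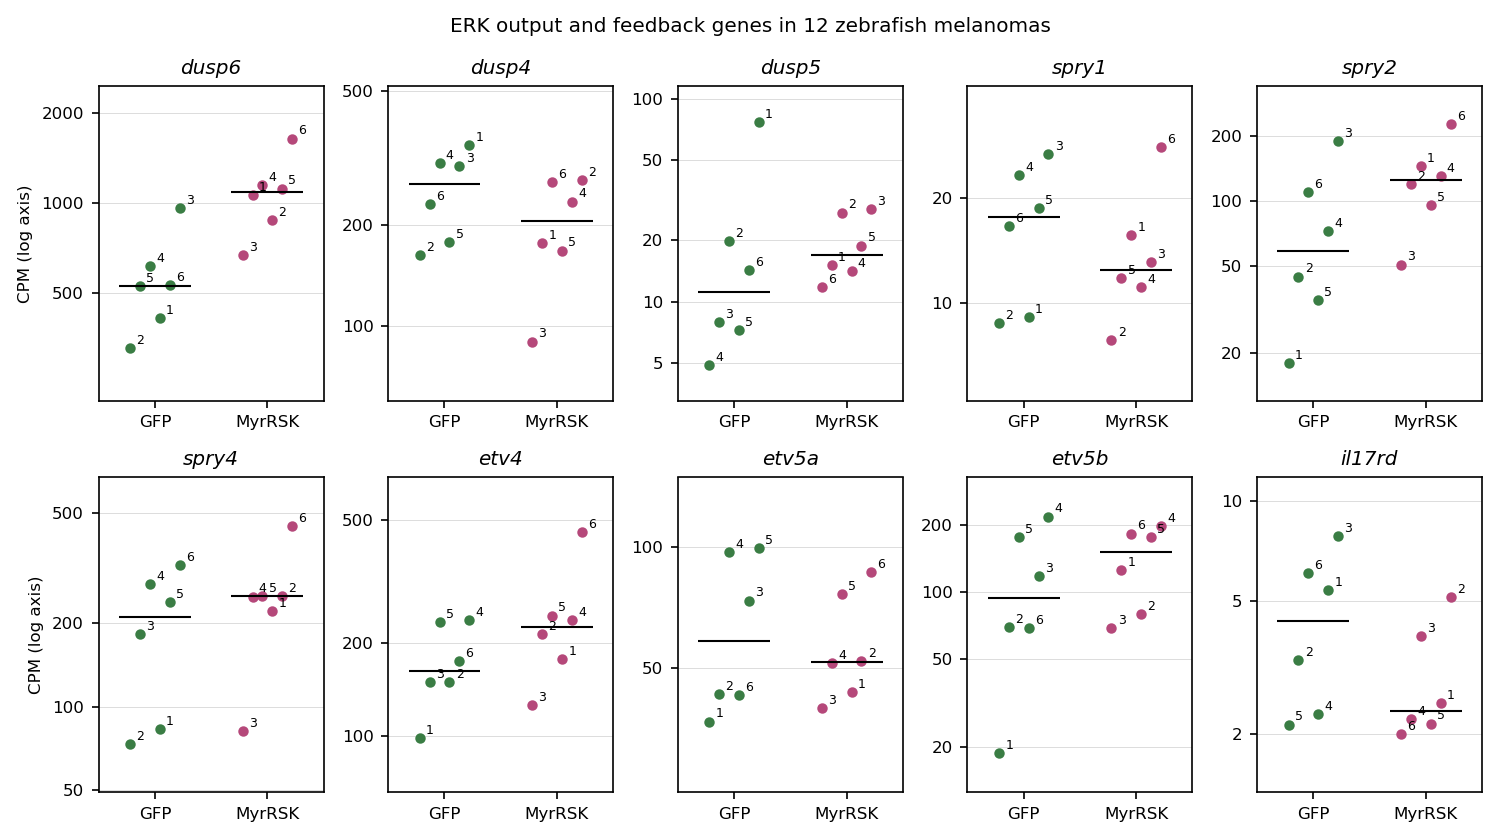
CPM of the 10 genes (log axis, a scale of its own for each gene) in the 6 GFP (green) and 6 MyrRSK (magenta) melanomas. Points are libraries with their replicate number, the horizontal shift only separates them, and bars are group medians; dusp6 shows the clearest shift, from a median of 528 to 1089 CPM.

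Among the phosphatase genes, dusp6 (ENSDARG00000070914, chromosome 25, 18813588 to 18817793, Zv9), which encodes the cytoplasmic ERK phosphatase, showed a higher level in MyrRSK melanomas. It ran from 325 CPM (GFP 2) through a median of 528 to 959 CPM (GFP 3) in GFP, and from 669.8 CPM (MyrRSK 3) through a median of 1089 to 1644 CPM (MyrRSK 6) in MyrRSK melanomas. Of the 6 MyrRSK libraries 4 lay above every GFP library, and 5 of the 6 GFP libraries lay below every MyrRSK library, so that the overlap came from GFP 3, MyrRSK 2 and MyrRSK 3. The group means were 561 ± 220 and 1086 ± 327 CPM (SD, n = 6). On the log2 scale MyrRSK exceeded GFP by 0.95 ± 0.28 (SE; 95% interval 0.34 to 1.56), or 1.94-fold. The adjusted p was 0.128 with edgeR (unadjusted 0.00477), 0.124 with limma-voom and 0.0322 with DESeq2, and over all alternatives it ranged from 0.0322 to 0.613. The authors' deposited table gives dusp6 a log2 fold change of 0.83 and an adjusted p of 0.0356. There, 2.88% of genes with an adjusted p are listed as higher. These values come from the same libraries as the DESeq2 fit and are no separate line of evidence. The call thus rested on the tool. Leaving out any 1 library in edgeR gave a log2 fold change of 0.80 (without MyrRSK 6) to 1.17 (without GFP 3). The adjusted p then ran from 0.0712 to 0.228. Without GFP 1 and GFP 2 together the log2 fold change of dusp6 was 0.72 ± 0.29 (adjusted p = 0.254 with edgeR). This was the smallest value among the alternatives.

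Skeletal muscle markers summed to 97.9 to 1234 CPM in GFP and 233 to 1379 CPM in MyrRSK melanomas, and 5 of the 28 matched (ckmb, myl1, tnni2a.4, pvalb2 and pvalb3) were at 0 in at least 1 library. The mean log2 CPM of the list, which weights its genes equally, ran from -0.92 to 0.0774 in GFP libraries and from 1.22 to 3.78 in 5 of the 6 MyrRSK libraries, with MyrRSK 3 at -0.43, so that it nearly separated the groups. With this mean as a covariate, the log2 fold change of dusp6 was 0.90 ± 0.46 (adjusted p = 0.613 with edgeR). In bulk tumour RNA, a change in the number of cells of a type and a change in RNA per cell cannot be told apart.

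The nuclear phosphatase gene dusp4 (ENSDARG00000044688, chromosome 21) did not follow dusp6. Its levels were 162 to 345 CPM (median 265) in GFP and 90.0 to 272 CPM (median 206) in MyrRSK melanomas, with MyrRSK 3 alone below every GFP library. Its log2 fold change was -0.33 ± 0.28 (95% interval -0.94 to 0.28, adjusted p = 0.610 with edgeR). It was -0.18 without MyrRSK 3 and -1.01 ± 0.42 with the muscle covariate, where the unadjusted p alone passed.

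The gene of the second nuclear ERK phosphatase, dusp5 (ENSDARG00000019307, chromosome 22), was dominated by 1 tumour. In GFP melanomas it ran from 4.86 CPM (GFP 4) through a median of 11.1 to 76.9 CPM (GFP 1), a 15.8-fold range, and in MyrRSK melanomas from 11.8 CPM (MyrRSK 6) through a median of 17.0 to 28.4 CPM (MyrRSK 3), a 2.42-fold range. GFP 4, GFP 3 and GFP 5 lay below every MyrRSK library, while GFP 1 lay far above all of them. For dusp5 the log2 fold change was -0.18 ± 0.59 (95% interval -1.45 to 1.09, adjusted p = 0.907 with edgeR). Without GFP 1 it was 0.83 ± 0.38 (adjusted p = 0.303), and without GFP 1 and GFP 2 together 1.17 ± 0.36 (adjusted p = 0.162). With GFP 1 kept, it was 0.43 with limma-voom and 0.52 with a replicate block in edgeR. The direction of dusp5 thus depended both on GFP 1 and on the model. Endothelial markers, of which 11 were tested and none was at 0 in any library, summed to 244 CPM in GFP 1 and 188 CPM in GFP 2, against 81.9 to 84.3 CPM in the other 4 GFP libraries. In MyrRSK melanomas they summed to 48.9 to 136 CPM, highest in MyrRSK 2 and next in MyrRSK 3 (96.9 CPM), the libraries with the 2 highest dusp5 levels of that group. Other libraries did not follow this order. GFP 4 and GFP 6 had similar sums (83.8 and 84.2 CPM) but dusp5 levels of 4.86 and 14.3 CPM. MyrRSK 6 had the lowest sum (48.9 CPM), and its dusp5 level of 11.8 CPM lay above GFP 3, GFP 4 and GFP 5. Keratinocyte markers summed to 11384 CPM in GFP 1 and to at most 5249 CPM in any other library, and red cell markers to 4721 CPM in GFP 1 and at most 1718 CPM elsewhere. Fibroblast markers summed to 1290 CPM in GFP 1, 914 CPM in GFP 2 and 629 CPM in GFP 6, and to 274 CPM in GFP 4. In MyrRSK melanomas they were highest in MyrRSK 2 (1694 CPM) and MyrRSK 3 (1452 CPM). Both of these sums exceeded that of GFP 1, while dusp5 in these libraries (27.5 and 28.4 CPM) lay below its level in GFP 1. The part of these cell types in the dusp5 values was not tested.

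**Figure D2:**
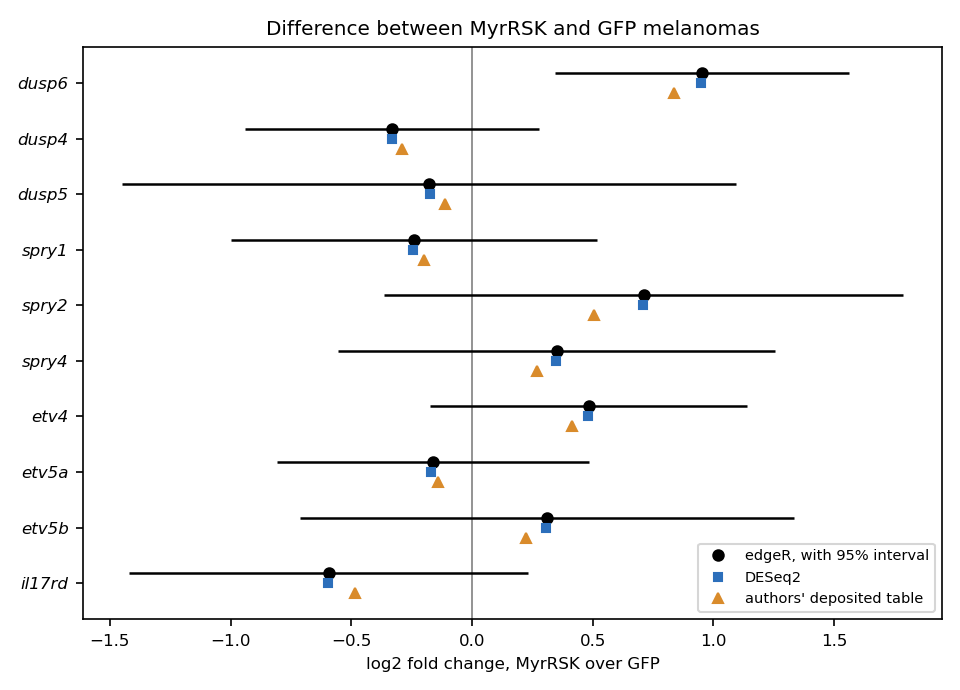
Log2 fold change of each gene, MyrRSK over GFP (x axis; genes on the y axis), from edgeR with its 95% interval (black), from DESeq2 (blue) and from the authors' deposited table (orange). Only the edgeR interval of dusp6, 0.34 to 1.56, lies apart from 0, and the deposited values are nearer to 0 than the other estimates for all 10 genes.

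The Sprouty genes, whose products dampen signalling between receptor tyrosine kinases and Raf, differed in sign and none passed. The level of spry2 (ENSDARG00000078308, chromosome 1) ran from 17.97 CPM (GFP 1) through a median of 58.8 to 189 CPM (GFP 3), and from 50.9 CPM (MyrRSK 3) through a median of 125 to 226 CPM (MyrRSK 6). The GFP 1, GFP 2 and GFP 5 libraries lay below every MyrRSK library and GFP 3 above all but MyrRSK 6. The log2 fold change of spry2 was 0.71 ± 0.50 (95% interval -0.36 to 1.79, adjusted p = 0.526 with edgeR), and it was 1.19 without GFP 3 and 0.47 without MyrRSK 6.

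For spry4 (ENSDARG00000068732, chromosome 21) the lowest, median and highest levels were 73.3, 211 and 324 CPM in GFP and 81.6, 251 and 449.6 CPM in MyrRSK melanomas. The GFP 1, GFP 2 and MyrRSK 3 tumours lay between 73.3 and 83.1 CPM, and the other 9 lay between 183 and 449.6 CPM. The log2 fold change of spry4 was 0.35 ± 0.42 (adjusted p = 0.723), and it was -0.0280 without GFP 1 and GFP 2. The gene spry1 (ENSDARG00000024286, chromosome 14) stood at 8.74 to 26.9 CPM (median 17.7) in GFP and 7.80 to 28.2 CPM (median 12.4) in MyrRSK melanomas, with a log2 fold change of -0.24 ± 0.35 (adjusted p = 0.777 with edgeR for spry1). Its ranges overlapped almost entirely.

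The level of il17rd (ENSDARG00000038843, chromosome 11), the gene of the membrane inhibitor Sef, was 2.13 to 7.84 CPM (median 4.36) in GFP and 2.003 to 5.13 CPM (median 2.35) in MyrRSK melanomas. In 4 MyrRSK libraries it lay at or below 2.48 CPM, as it did in GFP 4 and GFP 5. For il17rd the log2 fold change was -0.59 ± 0.38 (95% interval -1.42 to 0.23, adjusted p = 0.487 with edgeR). A second zebrafish copy, listed as IL17RD (2 of 2) and chosen after its values were seen, had mean levels of 8.76 CPM in GFP and 6.88 CPM in MyrRSK melanomas (log2 fold change -0.35 ± 0.58, adjusted p = 0.806).

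Of the PEA3-group transcription factor genes, etv4 (ENSDARG00000018303, chromosome 12) ran from 98.4 CPM (GFP 1) through a median of 162 to 238 CPM (GFP 4) in GFP, and from 126 CPM (MyrRSK 3) through a median of 225 to 458 CPM (MyrRSK 6) in MyrRSK melanomas. MyrRSK 6 stood alone at the top, and the other 5 MyrRSK libraries lay between 126 and 245 CPM, beside 98.4 to 238 CPM in GFP. The log2 fold change of etv4 was 0.48 ± 0.30 (95% interval -0.17 to 1.14, adjusted p = 0.475 with edgeR), and 0.20 without MyrRSK 6. Its relatives are etv5a (ENSDARG00000069763, chromosome 9) and etv5b (ENSDARG00000044511, chromosome 6), paralogs of each other that both correspond to mammalian ETV5. Their fold changes were of opposite sign and both within their error. The values of etv5a were 36.9 to 99.3 CPM (median 58.4) in GFP and 39.9 to 86.9 CPM (median 51.9) in MyrRSK melanomas, a log2 fold change of -0.16 ± 0.30 (adjusted p = 0.826). The values of etv5b were 18.8 to 219 CPM (median 93.7) and 68.9 to 199 CPM (median 151), a log2 fold change of 0.31 ± 0.48 (adjusted p = 0.788). GFP 1 was the lowest of all 12 libraries for etv4, etv5a and etv5b, and without it the log2 fold change of etv5b was 0.0891. No other gene in the table has a span that overlaps that of any of the 10 genes, and how reads were divided between the paralogs etv5a and etv5b was not tested.

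The spread between tumours differed among the 10 genes. The within-group SD of log2 CPM was 0.48 for dusp6, 0.53 for dusp4, 0.55 for etv4 and 0.55 for etv5a, and 34.6% to 42.6% of all genes tested had a smaller one. It was 0.65 for spry1, 0.67 for il17rd, 0.86 for spry4, 0.996 for spry2, 1.01 for etv5b and 1.07 for dusp5. In the same order, 52.6%, 54.4%, 68.4%, 76.3%, 77.3% and 79.9% of genes had a smaller SD. Between the lowest and the highest GFP tumour etv5b differed 11.7-fold and spry2 10.5-fold, against 2.88-fold and 4.44-fold among MyrRSK tumours.

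**Figure D3:**
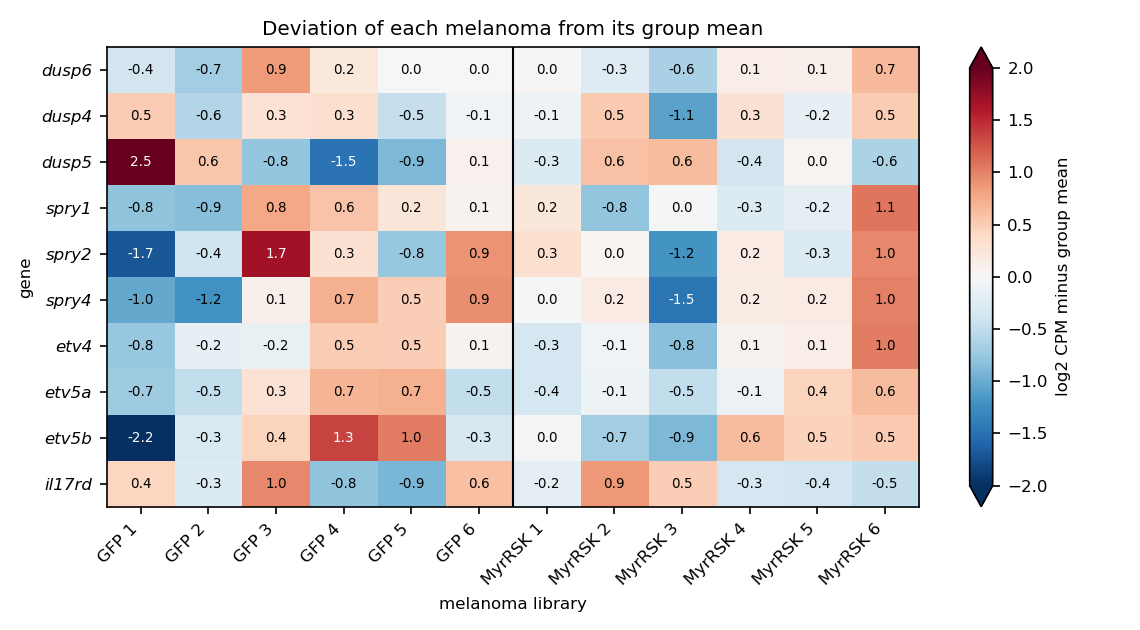
Log2 CPM of each gene (rows) in each melanoma (columns) minus the mean of its group; red is above and blue below the group mean, and the number in each cell is the value. MyrRSK 3 is the lowest of its group for 7 of the 10 genes and MyrRSK 6 the highest for 6, and the dusp5 row runs opposite to the etv5b row.

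The same tumours were high or low for many of the genes. MyrRSK 3 was the lowest MyrRSK library for 7 of 10 (dusp6, dusp4, spry2, spry4, etv4, etv5a and etv5b) and the highest for dusp5. MyrRSK 6 was the highest for 6 (dusp6, spry1, spry2, spry4, etv4 and etv5a) and the lowest for dusp5 and il17rd. In GFP melanomas GFP 1 was lowest for 4 genes and highest for dusp4 and dusp5, GFP 2 was lowest for another 4 and below the group mean for 9, and GFP 3 was highest for dusp6, spry1, spry2 and il17rd. How often each library was lowest or highest over all genes was not computed. MyrRSK 3 also had the highest summed leukocyte markers of all libraries (4809 CPM) and the lowest melanocyte markers of its group (3961 CPM). MyrRSK 6, at the other end for many of the genes, came next on both: 3695 CPM for leukocyte and 9057 CPM for melanocyte markers. GFP 6, with the lowest melanocyte markers of all (1302 CPM), was lowest in its group for 0 of the 10 genes. The part of these cell types in the order of the tumours was not tested.

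Correlations of log2 CPM after removing the group means describe this order over the 12 melanomas. The points of each pair come from the same libraries and share their scaling, and the 45 pairs are not independent. Grouped after the values were seen, dusp6, the 3 Sprouty genes and the 3 etv genes gave 21 pairs, all positive. Pearson's r ran from 0.37 to 0.83 (median 0.66). The 21 were also positive within the 6 GFP and within the 6 MyrRSK libraries. Since the grouping used these same values, the shared sign follows in part from the choice. The share of positive pairs among other genes was not computed. The closest pairs were etv5a with etv5b (r = 0.83, Spearman's rho = 0.85), spry4 with etv4 (0.83 and 0.90) and etv4 with etv5a (0.82 and 0.80). For dusp6 the closest was spry1 (r = 0.81, rho = 0.75), then spry2 (0.79 and 0.80). After the 2 libraries farthest from the median of the first gene were left out, r was 0.74, 0.86, 0.81, 0.71 and 0.75 for these 5 pairs. Over all 21 pairs it then ran from 0.11 to 0.90.

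The phosphatase gene dusp5 ran the other way. All 7 of its correlations with those genes were negative, from -0.64 with dusp6 to -0.96 with etv5b. The rho of dusp5 with etv5b was -0.93, and r was -0.89 without the 2 libraries farthest from the dusp5 median, -0.99 within GFP and -0.88 within MyrRSK libraries. The gene il17rd was also negatively related to etv4 (r = -0.60), etv5a (-0.56) and etv5b (-0.63), and positively to dusp5 (0.49). For dusp4 r lay between -0.0275 (dusp5) and 0.57 (dusp6). Without the 2 libraries farthest from the median of the first gene of each pair, it lay between -0.37 (etv5b) and 0.49 (dusp6). With spry4 it then changed sign, from 0.51 to -0.21.

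**Figure D4:**
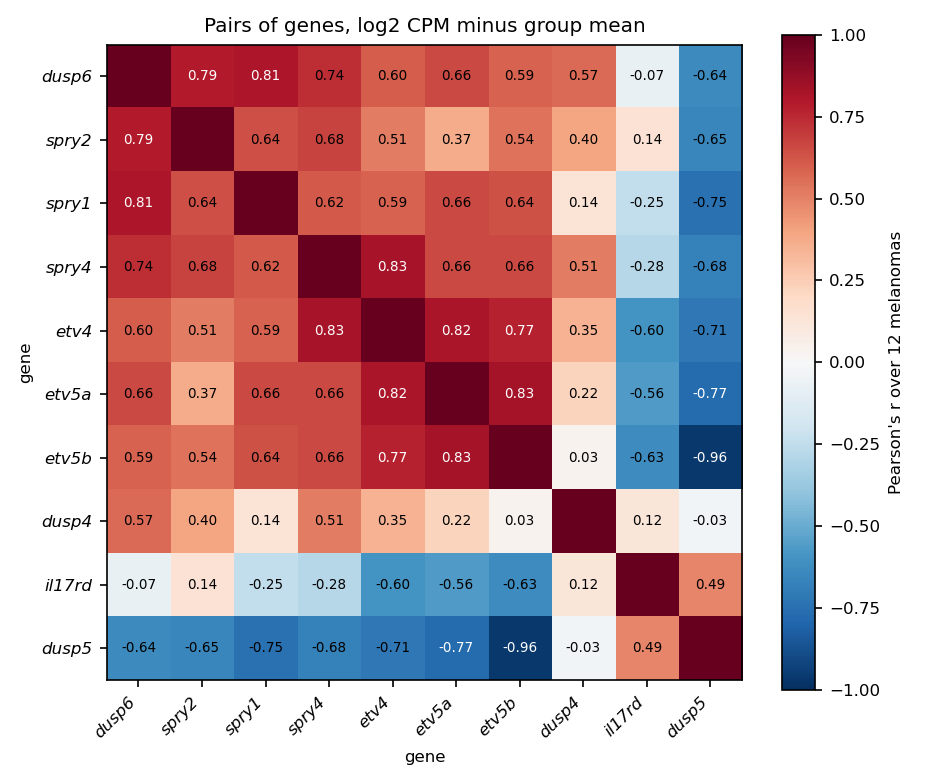
Pearson's r for each pair of the 10 genes (both axes) over the 12 melanomas, computed on log2 CPM minus the group mean; red is positive and blue negative. The block of dusp6, the Sprouty and the etv genes, grouped after the values were seen, is positive throughout (0.37 to 0.83). The gene dusp5 is negative against each of those 7 genes.

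Set against the other 9 genes in the same tumour, dusp6 separated the groups. The log2 CPM of dusp6 minus the mean log2 CPM of the other 9 ran from 3.13 (GFP 2) through a median of 3.40 to 3.87 (GFP 3) in GFP, and from 3.91 (MyrRSK 2) through a median of 4.31 to 4.36 (MyrRSK 6) in MyrRSK melanomas. The 2 groups did not overlap on this measure. The mean of the other 9 genes itself was 5.63 ± 0.35 in GFP and 5.81 ± 0.34 in MyrRSK melanomas (log2 CPM, SD, n = 6). The same measure separated the groups in neither direction for any other of the 10 genes, and each of these was set against the other 9. Over all genes tested, where genes outside the 10 were set against the mean of all 10, dusp6 included, the groups separated upwards in 0.335% and downwards in 1.09%. This measure was chosen after the values were seen and is given as a description without a test. The size of the difference from the other genes depends on transcript lengths, while its change between libraries does not.

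Genes at other levels of the pathway, grouped by role in lists of 22 to 40 names, showed 2 calls among 176 tested, against 0.406% of all genes. The lists were chosen with earlier results of these data known, so this count is a description only. One was the growth factor gene pdgfab (ENSDARG00000058424, chromosome 3), a platelet-derived growth factor A ligand. Mean pdgfab was 6.97 ± 2.59 CPM in GFP and rose to 24.7 ± 7.09 CPM in MyrRSK melanomas (SD, n = 6; log2 fold change 1.82 ± 0.27, adjusted p = 0.0204 with edgeR). Its GFP values ran from 4.70 to 12.1 CPM and its MyrRSK values from 16.4 to 36.3 CPM, with no overlap. Every MyrRSK library lay above every GFP library in 1.01% of all genes, and pdgfab was named because it passed the same comparison. The call ended without GFP 2 (log2 fold change 1.80, adjusted p = 0.0545) or MyrRSK 4 (1.78, 0.0519), and without GFP 1 and GFP 2 together (1.76, 0.0622). With the muscle covariate it also ended (adjusted p = 0.121), while the log2 fold change of pdgfab was 2.10 ± 0.36. At an unadjusted p under 0.05, against 15.5% of all genes in either direction, 3 of the 32 ligand genes tested were higher and 3 lower, and their median log2 fold change was -0.20.

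The other call was DUSP27 (ENSDARG00000076927, chromosome 1), an atypical member of the dual-specificity phosphatase family that is known in zebrafish for a role in skeletal muscle. Mean DUSP27 was 1.88 ± 0.71 CPM in GFP and rose to 7.72 ± 3.15 CPM in MyrRSK melanomas (log2 fold change 2.03 ± 0.35, adjusted p = 0.0293 with edgeR). All MyrRSK libraries (3.56 to 11.5 CPM) lay above all GFP libraries (1.01 to 2.98 CPM), as in 1.01% of all genes, and DUSP27 too was named because it passed the same comparison. With the muscle covariate the log2 fold change of DUSP27 was 1.01 ± 0.40 (adjusted p = 0.495). Its call also ended without GFP 2, GFP 5 or any 1 of MyrRSK 1, 2, 4, 5 and 6 (adjusted p from 0.0520 to 0.0741), and without GFP 1 and GFP 2 together (0.0566). Of the 14 phosphatase genes tested besides the 3 described above, the unadjusted p was under 0.05 for 1 higher and 1 lower gene, a share near that of all genes (7.18% higher and 8.33% lower). The closest relative of dusp6, dusp7 (0.39 ± 0.21, adjusted p = 0.394), and the stress-inducible dusp1 (-0.26 ± 0.51, adjusted p = 0.836) did not pass; both were picked out with their values known.

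**Figure D5:**
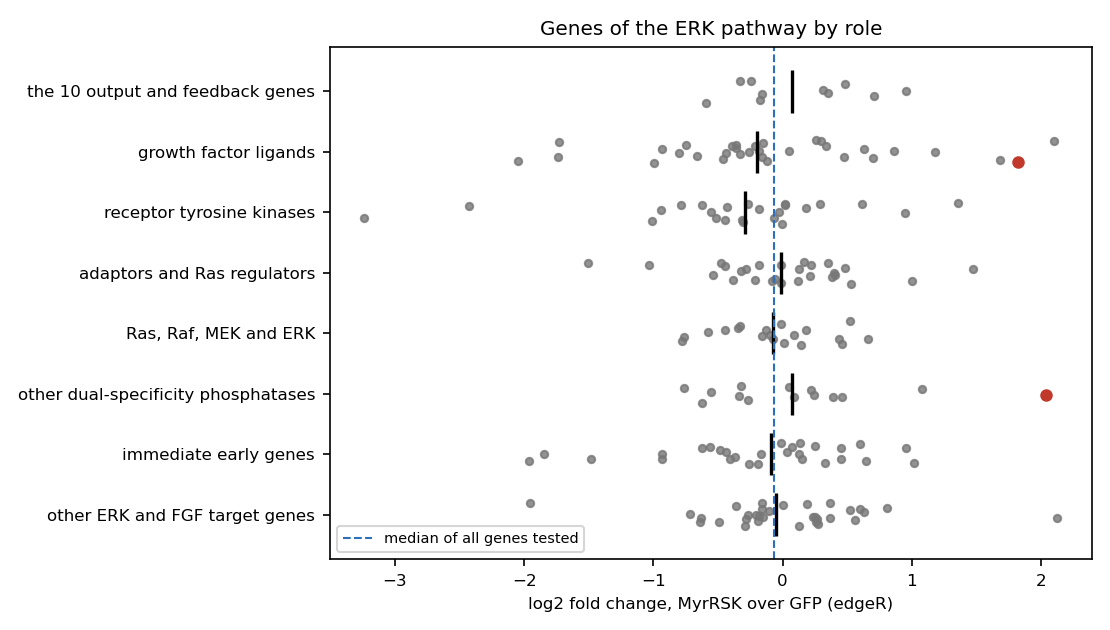
Log2 fold change, MyrRSK over GFP, from edgeR for each tested gene of the pathway (points), by role (rows); red points passed an adjusted p of 0.05, the vertical bars are list medians and the dashed line is the median of all genes tested (-0.07). Only pdgfab among the ligands and DUSP27 among the phosphatases are red, and the medians of the lists lie between -0.29 and 0.07.

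In the remaining lists edgeR called 0 genes, and the counts at an unadjusted p under 0.05 can be read against 7.18% of all genes higher and 8.33% lower. Among 24 receptor tyrosine kinase genes 2 were higher and 3 lower (median -0.29). The smallest p belonged to ret, the receptor gene for glial cell line-derived ligands (12.1 ± 15.8 and 1.28 ± 0.45 CPM, log2 fold change -3.24 ± 0.82, adjusted p = 0.0906), and fgfrl1a, an FGF receptor-like gene without a kinase domain (-2.43 ± 0.65, adjusted p = 0.105). Both were called by DESeq2 (adjusted p = 0.000613 for ret and 0.00392 for fgfrl1a), which called 2.92% of all genes lower. Among 27 adaptor and Ras regulator genes 3 were higher and 3 lower. The docking protein gene gab1 (143 ± 102 and 50.4 ± 11.7 CPM, -1.51 ± 0.42, adjusted p = 0.111) and frs2b, an adaptor gene of FGF receptors (0.53 ± 0.17, adjusted p = 0.164), did not pass with edgeR and were called by DESeq2 (0.0137 for gab1 and 0.0393 for frs2b).

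Of the 19 genes from Ras to ERK 2 were higher and 3 lower (median -0.08). The MEK1 and ERK scaffold gene lamtor3 had 27.0 ± 3.75 CPM in GFP and 38.7 ± 7.003 CPM in MyrRSK melanomas (log2 fold change 0.52 ± 0.17, adjusted p = 0.160 with edgeR and 0.0446 with DESeq2). The ERK1 gene mapk3 (-0.57 ± 0.25, adjusted p = 0.280 with edgeR), picked out with its values known, did not pass with either tool. Immediate early genes, which ERK and other signals switch on within minutes of a stimulus, numbered 28, with 2 higher and 2 lower (median -0.09). The transcription factor genes myca (1.02 ± 0.43, adjusted p = 0.274) and klf2b (0.96 ± 0.41, adjusted p = 0.282) had the smallest p there, and DESeq2 called 0 of this list. Of 32 further ERK and FGF target genes 1 was higher and 2 lower (median -0.05). These were led by phlda1, a pleckstrin-homology domain gene (23.6 ± 20.3 and 6.07 ± 4.11 CPM, -1.96 ± 0.61, adjusted p = 0.147 with edgeR and 0.0227 with DESeq2), and plaua, a urokinase-type plasminogen activator gene (2.13 ± 0.84, adjusted p = 0.245 with edgeR).

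Among 16332 other genes with a usable symbol and a mean normalized count of at least 50, those whose group-centred log2 CPM was among the most like that of dusp6 over the 12 melanomas were mtap (r = 0.92, rho = 0.79), clstn1 (0.92 and 0.89), fam172a (0.92 and 0.93) and ubr7 (0.91 and 0.94). Among the genes most like the mean of the 10 scaled profiles were sdc2 (r = 0.95, rho = 0.97), khsrp (0.92 and 0.79), cttnbp2 (0.90 and 0.77) and ANAPC13 (0.90 and 0.87). Without the 2 libraries farthest from the median of the profile, r for these genes ran from 0.81 to 0.94, and each is near the top of a search over all 16332. None of them passed in the comparison of the groups (adjusted p from 0.384 to 0.9499 with edgeR).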

How the data were processed

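PolyA RNA of 12 zebrafish melanomas was sequenced. Per the submitters' processing notes, STAR 2.6.1d, HTSeq 0.6.0, DESeq2 and the Zv9 genome were used; for the annotation release, the strand setting and each tool's role, nothing is stated. The deposited table holds the authors' raw counts per gene and library, a normalized signal (the count divided by 1 size factor per library), and the authors' comparison of the groups, with its log2 fold change and standard error, a score (the fold change over that error) and p-values. No gene in it has a mean normalized count under 5.08.

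The deposited counts were filtered with filterByExpr in edgeR 4.0.16 (R 4.3.3), scaled by TMM, and fitted with the robust quasi-likelihood model with group as the only term. Adjustment was by Benjamini-Hochberg over 26866 genes at 0.05. SE is the absolute log2 fold change divided by the root of F. CPM values use TMM-scaled library sizes, and log2 CPM a prior count of 1. The alternatives were DESeq2 1.42.0, limma-voom (limma 3.58.1), other scalings, no filter, a replicate block, a muscle marker covariate, and libraries left out. The code was tested on simulated data. Library totals were 61750434 to 72257237, and between any of the 66 pairs of libraries the counts differed by far more than sampling noise (chi-square per degree of freedom of at least 177).

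The 10 genes and all lists were chosen with earlier results of these data known. All 10 are named. From each pathway list the genes past the threshold are named or, where none passed, the 2 with the smallest p, as well as the 5 genes most like dusp6 and the 5 most like the mean of the 10. Some genes that this rule names are not reported here. Other genes are said to have been chosen after their values were seen. Of the gene IDs 68.5% have a current name in the reference tables. Gene positions are those of the deposited table.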

Additional observations from a re-analysis of the deposited data

Results flagged for a closer look

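In 2 of 20 groups of 6 libraries (10 genes, each in GFP and in MyrRSK melanomas), 1 library stood farther from the rest than Dixon's 95% limit of 0.625. The limit was set on the gap over the range of CPM. For normally distributed values chance alone gives about 1 in 20 such groups, and whether CPM are so distributed was not tested. The rule was not applied to log2 CPM, where high values stand out less. The level of dusp5 in GFP 1 was 76.9 CPM (gap over range 0.793). The level of etv4 in MyrRSK 6 was 458 CPM (gap over range 0.641).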

How the results depend on the processing

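With DESeq2, 1 of the 10 genes was called higher (dusp6) where edgeR called 0, and no other alternative called any of the 10. Over all genes, edgeR called 78 higher and 31 lower, DESeq2 792 and 760, and limma-voom 86 and 20. The counts were 1 and 0 with the muscle covariate (1308 and 1013 at an unadjusted p under 0.05) and 23 and 7 without GFP 1 and GFP 2. Leaving out 1 library at a time gave 1 to 104 higher and 0 to 84 lower. Pathway list calls, 2 higher and 0 lower with edgeR, were 4 and 4 with DESeq2, 0 higher with the muscle covariate, 0 higher and 1 lower without GFP 1 and GFP 2, and 0 to 3 higher with 1 library left out. The log2 fold change of dusp5 reversed from -0.18 to 0.43 with limma-voom and 1.17 without GFP 1 and GFP 2, and ran from -0.39 to 0.83 with 1 library left out. With the muscle covariate spry1 was 0.18, spry4 -0.0816 and etv5b -0.22; without GFP 1 and GFP 2 spry4 was -0.0280 and etv5b -0.0696. The cause was not tested for any of these.

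Libraries of the same replicate number had deviations from their group means that correlated at -0.148 to 0.103, and 0 of 6 GFP libraries correlated best with their own number. The sample titles give only the number, and whether such libraries share a batch was not tested. With the replicate number as a block, edgeR called 6 genes higher and 0 lower over all genes (1855 and 1310 at an unadjusted p under 0.05), 0 pathway list genes higher and 0 of the 10, and dusp5 was 0.52. The libraries were of similar depth, and how much of the spread between them is technical was not tested.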
